A study of Mus musculus with 8 samples.

Results

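Signal transducers and activators of transcription (STATs) are the transcription factors that carry cytokine and interferon signals from the cell membrane to the genome. The 6 STAT genes described here, *Stat2*, *Stat3*, *Stat4*, *Stat5a*, *Stat5b* and *Stat6*, were taken by symbol from the deposited normalized table and joined by Ensembl identifier to the count table, in which they are 6 of 55536 genes. All 6 passed the filter on low counts, which left 15998 genes for testing. RNA was sequenced from orthotopic HCA-1 tumors, grown from a mouse hepatocellular carcinoma line injected under the liver capsule of male C3H mice. On day 17 the mice received a single intravenous injection, and tumors were collected 3 h later. The treated group (IMQNP in the labels, n = 4) was given PFSUV-IMQ, phospholipid-free small unilamellar vesicles loaded with the TLR7 agonist imiquimod, at 4 mg kg−1, and the other group (Control, n = 4) was given saline. The labels put the age of the mice at 6 to 8 weeks. The younger range in the methods of the study is given with the purchase of the mice. All tumors come from 1 cell line, and each sample is a whole tumor with the host cells in it.

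A cytokine or interferon bound to its receptor activates the receptor's Janus kinases (JAKs), which phosphorylate a STAT protein on a tyrosine, and the STATs then pair, enter the nucleus and bind DNA. STAT2 acts mainly below the type I and type III interferon receptors in a complex with IRF9. STAT3 serves IL-6 family cytokines and drives the acute phase response of the liver, STAT4 serves IL-12 in T and natural killer (NK) cells, STAT5A and STAT5B serve growth hormone, prolactin and IL-2 family cytokines, and STAT6 serves IL-4 and IL-13. Phosphorylation is the switch in this pathway, and it is not measured by RNA sequencing, so the values below are levels of the transcripts only.

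Between 16883911 and 27687756 reads were counted per saline tumor and between 17008151 and 18527613 per PFSUV-IMQ tumor. Values are given as CPM, a gene's reads scaled to a common library size after TMM normalization, and 3 counts in a tumor correspond to 0.105 to 0.210 CPM, a limit that covers counting error only. No sequencing batch is given in the sources used here. The epithelial keratins *Krt8* and *Krt18* were at 686 ± 144 and 886 ± 253 CPM after saline, whereas the fetal liver markers *Afp* and *Gpc3* were at 5.46 ± 0.682 and 1.23 ± 0.371 CPM (SD, n = 4). The summed CPM of 7 hepatocyte markers ran from 4776.5 to 38901 in the saline tumors and from 7244.4 to 38572 in the PFSUV-IMQ tumors, with the highest sum in saline replicate 4 and in PFSUV-IMQ replicate 2. PFSUV-IMQ replicate 2 also had the highest CPM of its group for 344 of the 394 genes that rose. The same share over all tested genes was not computed.

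Of the 6 STAT genes, *Stat2* rose after PFSUV-IMQ, and no other passed the test. *Stat2* was 5.06-fold higher (95% interval 3.79 to 6.76), *Stat3* was 1.79-fold higher with an adjusted p just above the threshold, and *Stat4*, *Stat5a*, *Stat5b* and *Stat6* had differences smaller than the spread between tumors. The test was the quasi-likelihood test of edgeR, its p values were adjusted over the 15998 genes by the Benjamini-Hochberg method, and a gene counts as risen or fallen at an adjusted p under 0.05. Of the 6 STAT genes, 1 rose and 0 fell, against 2.46% and 0.219% of all tested genes. With a further limit of 1 on the log2 fold change, *Stat2* still counts, against a background of 2.26%. At an unadjusted p under 0.05, *Stat2* and *Stat3* were higher and none of the 6 was lower, against 8.34% of all tested genes higher and 13.0% in either direction. The 4 treated tumors were all above the 4 saline tumors for *Stat2* and *Stat3*, as for 6.00% of all tested genes, and all below them for none of the 6, against 3.28%.

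**Figure D1:**
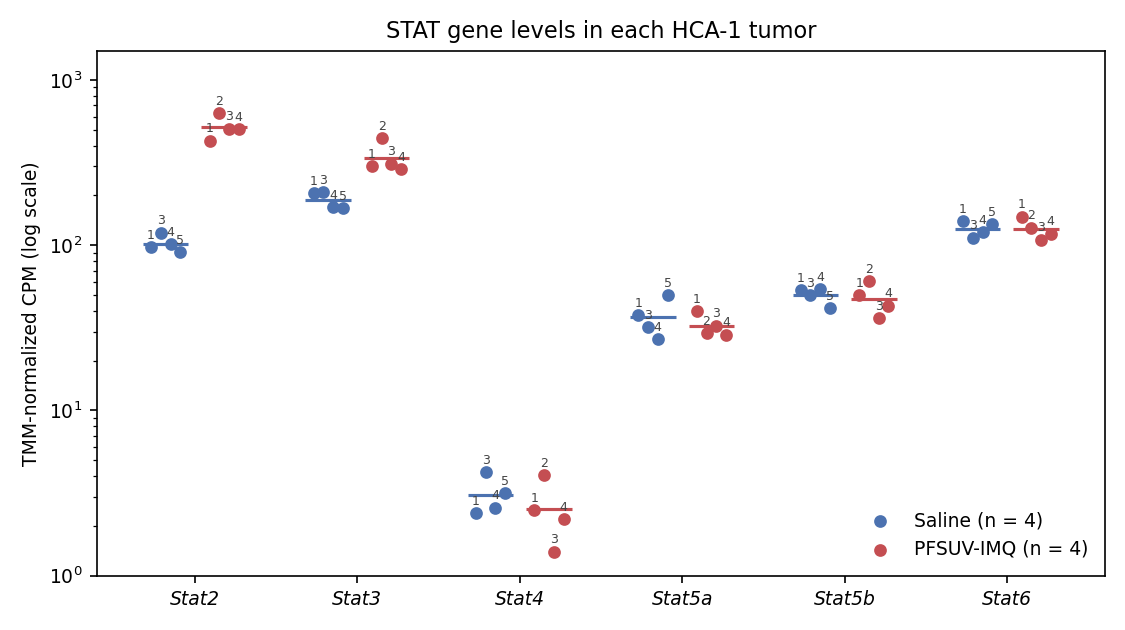
Normalized CPM (log axis) of the 6 STAT genes in each tumor, with saline in blue and PFSUV-IMQ in red (n = 4 each); small numbers are the replicate numbers of the labels and bars are group means. The groups are apart for *Stat2* (91.0 to 119 CPM against 429.6 to 626 CPM) and *Stat3* (167 to 208 CPM against 287 to 445 CPM), and overlap for the other 4 genes.

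*Stat2* (ENSMUSG00000040033) lies on the forward strand of chromosome 10, from 128270559 to 128292849 in GRCm38, and shares no exon bases with another annotated gene. Its saline levels were 97.2, 119, 101 and 91.0 CPM in replicates 1, 3, 4 and 5. After PFSUV-IMQ the levels were 429.6, 626, 506 and 504 CPM in replicates 1 to 4. The lowest treated tumor was therefore far above the highest saline tumor, and replicate 2 was the highest of its group. The means were 102 ± 11.9 and 517 ± 81.3 CPM (SD, n = 4 each), which is 2.34 on the log2 scale with a standard error of 0.19 (adjusted p = 4.99e-04, edgeR). Only 1.14% of tested genes had a larger fold change. With any 1 tumor left out the log2 fold change stayed between 2.22 and 2.42, with adjusted p values from 2.36e-04 to 0.00566 (edgeR). *Stat2* had 1676 to 9145 reads per tumor, so counting error is small beside the spread between tumors.

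The sequence before the *Stat2* start is shown because *Stat2* is the member that rose, and that of *Stat3* is shown beside it as the next largest difference. Both are RefSeq start regions on GRCm38.p6, reduced to the 250 bases before the start and written 5′ to 3′ on the strand of the gene. Capitals mark matches to 2 motifs, the core of the interferon-stimulated response element (GAAA and GAAA with any 2 bases between), the element bound by the STAT2 and IRF9 complex, and a long form of the gamma-activated site (TTC and GAA with any 4 bases between). The usual gamma-activated site (TTCNNNGAA) was searched too. Both strands were read, and the 2 forms of the gamma-activated site read the same on either strand.
Stat2 chr10:128270248-128270497 (+): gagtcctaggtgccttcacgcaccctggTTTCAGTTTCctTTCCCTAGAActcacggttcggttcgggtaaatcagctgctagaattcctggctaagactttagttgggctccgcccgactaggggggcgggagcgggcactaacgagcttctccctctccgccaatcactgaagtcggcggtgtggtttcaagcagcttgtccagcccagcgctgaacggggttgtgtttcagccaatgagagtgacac
Stat3 chr11:100939541-100939790 (-): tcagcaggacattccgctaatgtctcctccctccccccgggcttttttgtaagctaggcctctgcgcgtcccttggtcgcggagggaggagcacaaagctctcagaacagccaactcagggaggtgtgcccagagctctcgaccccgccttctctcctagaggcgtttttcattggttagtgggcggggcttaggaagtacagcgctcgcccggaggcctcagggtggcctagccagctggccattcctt
The *Stat2* region held TTTCAGTTTC, the reverse strand form of the response element core, from position -222 to -213 before the start, and TTCCCTAGAA from -210 to -201. The *Stat3* region held none of the 3 motifs. RefSeq gives 9 start regions for the 6 genes, and the only other match was GAAAGTGAAA, from -97 to -88 before the second of the *Stat4* starts. Among 32851 start regions of 300 bases (250 before and 50 after the start), 3.44% hold the response element core, 8.30% the usual gamma-activated site and 6.95% its long form. A match is a description of the letters in the window, and binding was not measured.

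*Stat3* (ENSMUSG00000004040) is on the reverse strand of chromosome 11, from 100885098 to 100939540. The saline tumors had 207, 208, 170 and 167 CPM in replicates 1, 3, 4 and 5, and the PFSUV-IMQ tumors had 301, 445, 311 and 287 CPM in replicates 1 to 4. The groups did not overlap, and among the treated tumors replicate 2 was well above the remaining 3, which lay close together. Means were 188 ± 22.6 and 336 ± 73.2 CPM (SD, n = 4 each). On the log2 scale the difference was 0.84 with a standard error of 0.19 and a 95% interval of 0.40 to 1.27, with an unadjusted p of 0.00168 and an adjusted p of 0.0578 (edgeR). An exact two-sided permutation test of *Stat3* alone gave p = 0.0286, the smallest that 4 against 4 tumors can give. Across all genes the DESeq2 Wald test and edgeR's exact test put *Stat3* past the threshold, with adjusted p values of 0.00886 and 0.0192, and these tests called 3.72% and 3.92% of the genes they tested higher, and 0.915% and 0.688% lower. Without PFSUV-IMQ replicate 2 the log2 fold change was 0.65 (adjusted p = 0.101, edgeR). That tumor had the highest hepatocyte marker sum of its group (38572 CPM), while saline replicate 4, with a sum of 38901 CPM, had 170 CPM of *Stat3*; the part of hepatocyte content in the *Stat3* difference was not tested.

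**Figure D2:**
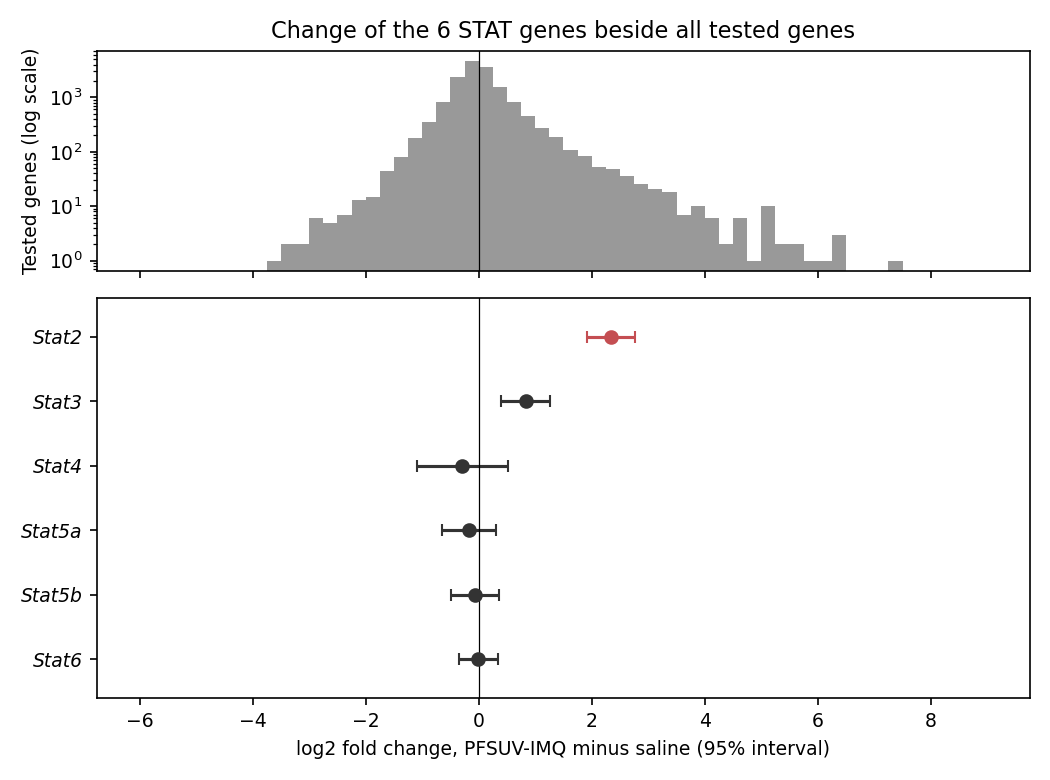
Upper panel, number of tested genes (log axis) by log2 fold change, PFSUV-IMQ minus saline, in bins of 0.25. Lower panel, the log2 fold change of each STAT gene with its 95% interval (edgeR, n = 4 each), in red where the adjusted p is under 0.05; the intervals of *Stat2* (1.92 to 2.76) and *Stat3* (0.40 to 1.27) lie above 0, and the other 4 include 0.

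*Stat5a* and *Stat5b*, which encode 2 closely related factors, sit head to head on chromosome 11 with 8626 bases between them, and *Stat3* follows *Stat5a* tail to tail. *Stat5a* (ENSMUSG00000004043, 100859351 to 100885169, forward strand) shares its last 72 bases with the end of *Stat3*. *Stat5b* (ENSMUSG00000020919) runs from 100780731 to 100850724 on the reverse strand. *Stat5a* had 37.7, 31.9, 26.9 and 49.6 CPM in saline replicates 1, 3, 4 and 5 and 39.8, 29.2, 32.5 and 28.7 CPM in PFSUV-IMQ replicates 1 to 4, so the treated range fell inside the saline range. *Stat5b* had 53.3, 49.7, 54.2 and 41.4 CPM after saline and 49.9, 60.7, 36.1 and 43.1 CPM after PFSUV-IMQ, and here the treated tumors spread on both sides of the saline tumors. The log2 fold changes were -0.17 for *Stat5a* (standard error 0.21, 95% interval -0.64 to 0.31, adjusted p = 0.832) and -0.07 for *Stat5b* (standard error 0.19, 95% interval -0.48 to 0.35, adjusted p = 0.940). The direction for *Stat5a* turned without saline replicate 5, the tumor with its highest level, at 0.017. Leaving out PFSUV-IMQ replicate 3 turned the direction for *Stat5b*, at 0.047. Cut into 50-base words, the longest transcript of *Stat5a* shares 10.8% of them with *Stat5b*, and that of *Stat5b* shares 11.8% with *Stat5a*, so reads from these stretches may not have been assigned to 1 gene with certainty. On the same stretch of chromosome, *Cavin1*, 17192 bases beyond *Stat3*, differed by 0.13 on the log2 scale (standard error 0.25, adjusted p = 0.904) and *Ghdc*, 9773 bases beyond *Stat5b*, of 0.06 (standard error 0.20, adjusted p = 0.952).

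*Stat6* (ENSMUSG00000002147) lies on chromosome 10 from 127642986 to 127660957 on the forward strand, the chromosome that also carries *Stat2*. Its saline levels were 139, 111, 120 and 133 CPM in replicates 1, 3, 4 and 5, and its PFSUV-IMQ levels 148, 128, 108 and 118 CPM in replicates 1 to 4. The ranges were nearly the same, and neither group was consistently higher. Mean levels were 125.8 ± 13.0 and 125.5 ± 17.3 CPM, with a log2 fold change of -0.00 (-0.00374 unrounded, standard error 0.16, adjusted p = 0.995). The 95% interval, -0.36 to 0.35, corresponds to 0.781-fold to 1.27-fold. *Nemp1*, the next coding gene 5943 bases away, had 21.3 ± 3.19 and 30.5 ± 2.96 CPM (log2 fold change 0.52, standard error 0.16, adjusted p = 0.166).

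*Stat4* (ENSMUSG00000062939, chromosome 1, 51987148 to 52107189, forward strand) was the least abundant member, with 25 to 120 reads per tumor. Saline replicates 1, 3, 4 and 5 had 2.40, 4.22, 2.58 and 3.15 CPM, and PFSUV-IMQ replicates 1 to 4 had 2.48, 4.05, 1.39 and 2.21 CPM. The highest treated tumor was close to the highest saline tumor, and the lowest level of all was in PFSUV-IMQ replicate 3. The log2 fold change was -0.29 (standard error 0.36, adjusted p = 0.823), with the widest interval of the 6 genes, -1.10 to 0.51. In a whole tumor, fewer cells of a type and less RNA per cell cannot be told apart, which bears most on a gene of T and NK cells such as *Stat4*. None of 7 T cell markers (*Cd3d*, *Cd3e*, *Cd3g*, *Cd2*, *Cd5*, *Cd8a* and *Cd4*) passed the test, and their summed level was 56.3 to 124 CPM after saline and 58.1 to 146.5 CPM after PFSUV-IMQ. Of the 7, 6 had a fold change below 0 and 1 above 0. *Cd5* was lower at an unadjusted p under 0.05 (log2 fold change -1.17, adjusted p = 0.160, edgeR). Every treated tumor was below every saline tumor for *Cd5*, as for 3.28% of all tested genes. Among the NK cell markers *Ncr1*, *Klrb1c*, *Klrk1*, *Eomes* and *Klre1*, 4 had enough counts for testing and none passed, with summed levels of 13.5 to 33.1 and 26.8 to 85.1 CPM. Of the 4 tested, 3 had a fold change above 0 and 1 below 0. At an unadjusted p under 0.05, *Klrk1* was higher (log2 fold change 1.16, adjusted p = 0.252) and *Ncr1* lower (-1.63, adjusted p = 0.325, edgeR). *Klrk1* had 13.2 ± 5.05 and 29.5 ± 18.5 CPM, and *Ncr1* 0.998 ± 0.688 and 0.331 ± 0.297 CPM. Of all tested genes, 13.0% passed that limit in either direction. None of these markers was at 0 in all tumors, and *Klrb1c* had at most 7 reads in a saline tumor. The annotated gene *Gm28177* shares 26.7% of the exon bases of *Stat4* on the same strand and had 1 to 4 reads per tumor, so reads in the shared part may have been left uncounted.

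Levels can be compared between genes only per length, here as CPM per kilobase of merged exons. After saline the order of mean levels was *Stat6* (28.6 ± 2.95), *Stat3* (19.8 ± 2.38), *Stat2* (17.2 ± 2.01), *Stat5b* (8.96 ± 1.06), *Stat5a* (5.12 ± 1.37) and *Stat4* (0.797 ± 0.212 CPM per kb, SD, n = 4). The ranges of *Stat3* and *Stat2* overlapped, although *Stat3* was higher in each of the 4 saline tumors, and the other neighbors in this order did not overlap. After PFSUV-IMQ *Stat2* came first at 87.2 ± 13.7, followed by *Stat3* (35.3 ± 7.68), *Stat6* (28.5 ± 3.93), *Stat5b* (8.57 ± 1.89), *Stat5a* (4.56 ± 0.716) and *Stat4* (0.654 ± 0.287 CPM per kb). In this group *Stat3* and *Stat6* overlapped, with *Stat3* higher in 3 of 4 tumors. The sum of the 6 levels was 76.3 to 85.3 CPM per kb in the saline tumors and 153 to 197 CPM per kb in the PFSUV-IMQ tumors. *Stat2* made up 19.2 to 24.6% of that sum after saline and 47.4 to 55.5% after PFSUV-IMQ. The share of *Stat6* was 30.8 to 38.7% and 14.7 to 22.0%, with its level nearly the same. Using the longest transcript of each gene in place of merged exons left all 15 pairs of genes in the same order in both groups.

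**Figure D3:**
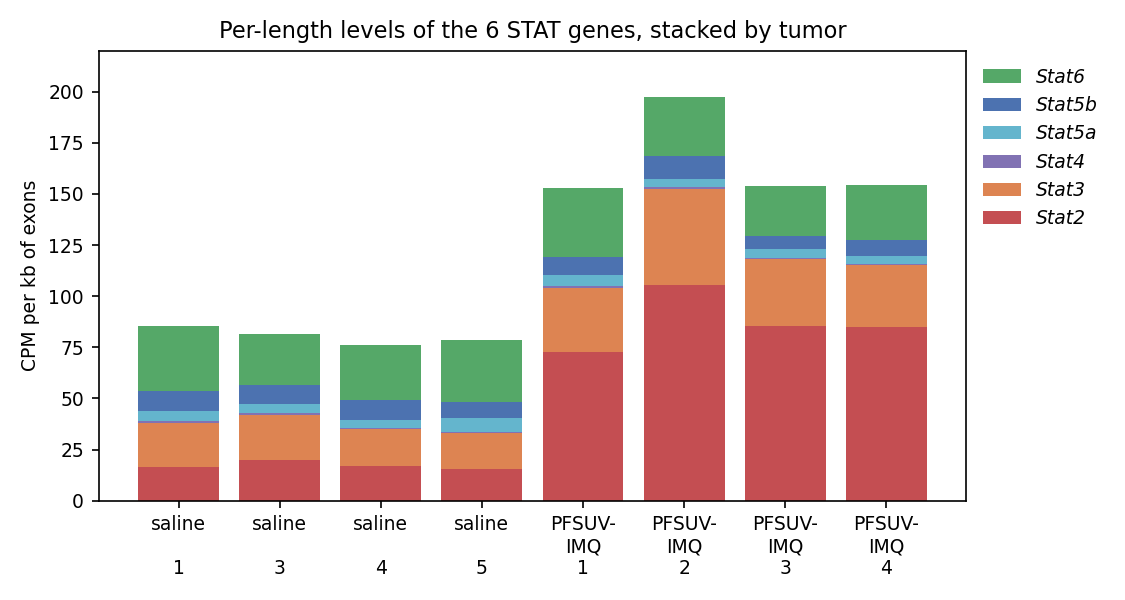
Per-length levels (CPM per kb of exons) of the 6 STAT genes stacked for each tumor, labelled by group and replicate number. The stacks reach 76.3 to 85.3 after saline and 153 to 197 after PFSUV-IMQ, and the *Stat2* part accounts for 19.2 to 24.6% and 47.4 to 55.5% of them.

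Whether the members changed by different amounts was tested within tumors, as the difference of 2 genes' log2 CPM in each tumor compared between groups by an exact two-sided permutation test, with p values adjusted over the 6 pairs. The log2 change of *Stat2* exceeded that of *Stat3* by 1.51, with the within-tumor difference going from -0.88 ± 0.15 after saline to 0.63 ± 0.15 after PFSUV-IMQ (SD, n = 4 each, exact p = 0.0286, adjusted p = 0.0343). It exceeded those of *Stat4*, *Stat5a*, *Stat5b* and *Stat6* by 2.67, 2.47, 2.42 and 2.34, each with the same exact p of 0.0286, the smallest this design can give, and the same adjusted p of 0.0343. In all 5 pairs with *Stat2*, the 4 treated tumors lay above the 4 saline tumors. *Stat2* is the common gene of these pairs, and the members were chosen with earlier results of these data known. The p values of these pairs therefore lend its rise no further support. For *Stat5a* against *Stat5b* the difference was -0.06 (exact p = 0.886), with within-tumor differences from -1.01 to 0.26 after saline and from -1.05 to -0.15 after PFSUV-IMQ.

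The genes whose pattern over the 8 tumors was nearest to *Stat2*, by the root mean square difference of log2 CPM after centering each gene, were *Trim25* (0.13), *Xaf1* (0.13) and *Parp12* (0.15 log2 units). *Trim25* had means of 79.7 ± 10.4 and 404 ± 71.3 CPM and differed by 2.34 on the log2 scale, and *Xaf1* and *Parp12* had log2 fold changes of 2.43 and 2.33. Nearest to *Stat3*, named after their values were seen, were *Trib1* (0.08), *Optn* (0.10) and *F11r* (0.13 log2 units). Their log2 fold changes were 0.77, 0.80 and 0.81. As the measure of likeness uses the same 8 tumors, fold changes near those of *Stat2* and *Stat3* follow from the selection and lend those 2 genes no support.

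Around the STAT factors, 114 genes were listed by role, and 105 of them had enough counts. Of these, 20 rose and none fell (19.0% against 2.68% of all tested genes in either direction), and 12 of the 20 belong to a list of STAT2 targets. The lists overlap in a few genes and were written with earlier results of these data known, so their counts are descriptions.

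**Figure D4:**
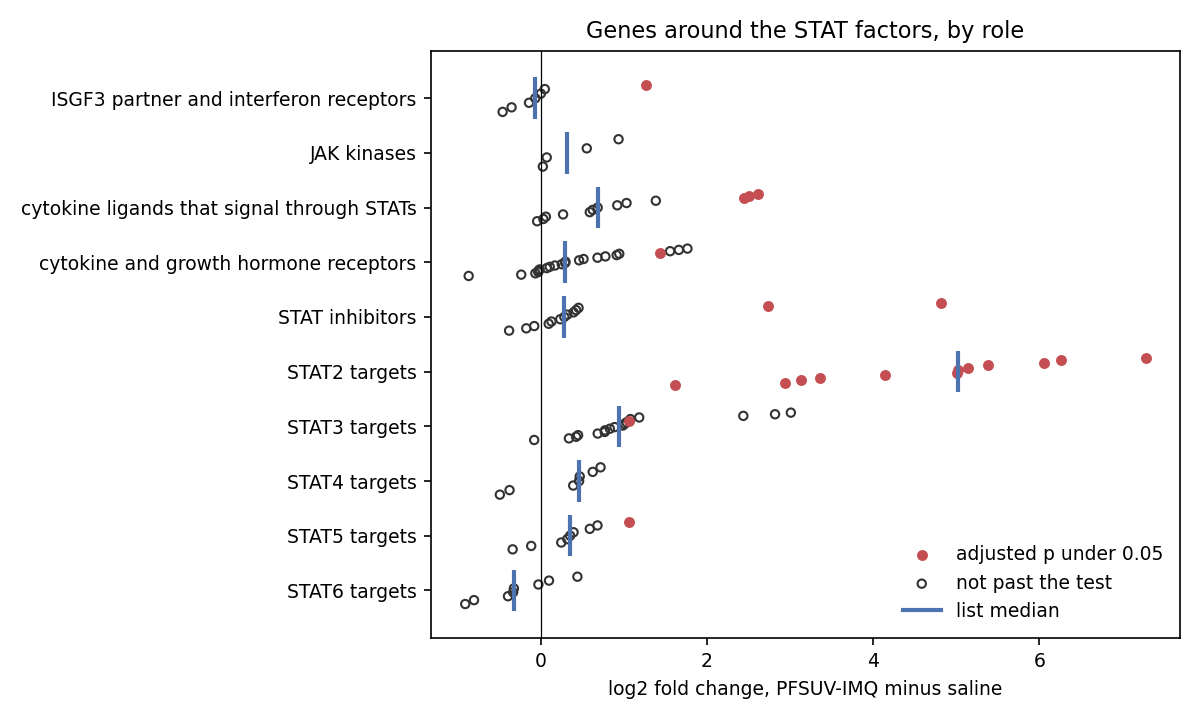
Log2 fold change, PFSUV-IMQ minus saline, of each tested gene in 10 lists around the STAT factors; filled red points passed the edgeR test at an adjusted p under 0.05, open points did not, and blue bars are list medians. The median of the STAT2 targets is 5.02 and those of the other 9 lists run from -0.33 to 0.94, while single genes of other lists, such as *Usp18* at 4.82, lie within the range of the STAT2 targets (1.61 to 7.28).

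*Irf9*, which encodes the DNA-binding partner of STAT2, was the 1 gene that rose among the 7 of the list of this partner and the interferon receptors, against 2.46% of all tested genes. It had 42.8 to 61.9 CPM after saline and 99.9 to 164 CPM after PFSUV-IMQ, means of 53.2 ± 7.93 and 127 ± 26.8 CPM (log2 fold change 1.26, standard error 0.19, adjusted p = 0.00870), and the call held with each of the 8 tumors left out in turn. The 2 chains of the type I interferon receptor were at 60.1 ± 3.13 and 54.4 ± 6.08 CPM for *Ifnar1* and at 50.5 ± 3.87 and 52.1 ± 7.58 CPM for *Ifnar2* (log2 fold changes -0.14 and 0.05, adjusted p = 0.763 and 0.948). None of the 4 JAK kinase genes passed. *Jak2*, which serves IL-6 family, growth hormone and interferon gamma receptors, had 44.8 to 62.1 CPM after saline and 62.3 to 197 CPM after PFSUV-IMQ (log2 fold change 0.93, standard error 0.34, adjusted p = 0.262). *Jak3*, the kinase of the common gamma chain, had a log2 fold change of 0.55 (adjusted p = 0.350), while *Jak1* and *Tyk2*, the kinases of the type I interferon receptor, had 0.02 and 0.07 (adjusted p = 0.981 and 0.939).

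All 12 STAT2 targets rose, against 2.46% of all tested genes, with log2 fold changes from 1.61 (*Isg20*) to 7.28 (*Rsad2*). Their median was 5.02, against a median of -0.03 over all tested genes. The study had already named *Ifit1*, *Ifit3*, *Mx1*, *Mx2*, *Isg15* and *Rsad2* among its upregulated genes in these tumors. The count is therefore a description. *Rsad2*, *Ifit1* and *Ifit3*, which encode antiviral effectors, and the antiviral GTPase gene *Mx1* (6.26) led the list, and *Isg20*, named after its values were seen, was the lowest. The summed level of the 12 genes was 269 to 386 CPM in the saline tumors and 6261 to 19710 CPM in the PFSUV-IMQ tumors.

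Among the inhibitors of the pathway, 2 of 13 rose, against 2.46% of all tested genes. *Usp18*, which encodes an ISG15 protease that binds STAT2 and IFNAR2 and damps the interferon signal, went from 17.6 ± 3.59 to 496 ± 276 CPM (log2 fold change 4.82, standard error 0.41, adjusted p = 5.94e-04). *Socs1*, an inhibitor of the JAK kinases, had 5.65 to 10.7 CPM after saline and 29.1 to 102 CPM after PFSUV-IMQ (log2 fold change 2.74, standard error 0.46, adjusted p = 0.0137), and 1 of the 8 fits that left out a tumor did not call it. *Socs3*, the feedback inhibitor of IL-6 signaling and itself a STAT3 target, had 98.8 ± 18.4 and 132 ± 29.9 CPM (log2 fold change 0.42, standard error 0.21, adjusted p = 0.452). *Cish*, the classical STAT5 target and inhibitor, had 9.97 ± 1.95 and 12.4 ± 10.1 CPM (log2 fold change 0.32, adjusted p = 0.855). The other 9 inhibitor genes, of the SOCS, PIAS and PTPN families, had log2 fold changes from -0.38 to 0.45 and did not pass.

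Of 20 cytokine genes that act through STATs, 13 had enough counts and 3 of these rose, against 2.46% of all tested genes. Before adjustment, 5 of the 13 were higher at p under 0.05 and 0 lower (edgeR), against 8.34% of all tested genes higher. *Il15*, a ligand of the STAT5 branch, had 6.73 to 14.8 CPM after saline and 39.7 to 96.8 CPM after PFSUV-IMQ (log2 fold change 2.51, adjusted p = 0.00432). *Il6*, the main inducer of hepatic STAT3, was low at 0.567 ± 0.228 and 3.52 ± 2.52 CPM (log2 fold change 2.61, standard error 0.54, adjusted p = 0.0374), and 7 of the 8 fits without a tumor did not call it. *Il27*, which signals through STAT3 and other STATs, had a log2 fold change of 2.44 (adjusted p = 0.0286), not called in 4 of those fits. Of 22 tested receptor genes, *Osmr*, the oncostatin M receptor of the STAT3 branch, was the 1 that rose, a share near that 2.46%. It went from 30.9 ± 4.45 to 83.8 ± 36.4 CPM (log2 fold change 1.44, adjusted p = 0.0286, edgeR), and 5 of the 8 fits did not call it. Before adjustment, 7 of the 22 were higher at p under 0.05 and 0 lower (edgeR), against 8.34% of all tested genes higher. Their log2 fold changes were above 0 for 16 of the 22 and below 0 for 6. The shared IL-6 family receptor chain *Il6st* had 250 ± 67.6 and 244 ± 31.2 CPM (log2 fold change -0.03, adjusted p = 0.973), and the growth hormone receptor *Ghr* 501 ± 111 and 478 ± 57.7 CPM (log2 fold change -0.07, adjusted p = 0.944). *Il12rb2*, the STAT4-binding chain of the IL-12 receptor, was at 0.586 ± 0.191 and 0.811 ± 0.0890 CPM (adjusted p = 0.664). *Il12rb1* of the same list, named after its values were seen, had 4.19 to 5.69 CPM after saline and 8.16 to 26.2 CPM after PFSUV-IMQ. Its log2 fold change was 1.56 (standard error 0.36, adjusted p = 0.0581, edgeR), and 7 of the 8 fits without a tumor did not call it. *Il4ra*, the receptor chain that recruits STAT6, was at 180 ± 44.2 and 220.3 ± 50.2 CPM (adjusted p = 0.683).

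In the STAT3 target list 17 of 18 genes had a fold change above 0, against 7361 of all 15998 tested genes, and the median log2 fold change was 0.94. At an unadjusted p under 0.05, 8 of the 18 were higher and 0 lower, against 8.34% of all tested genes higher. In 4 of the 18, *Pim1*, *Bcl2l1*, *Lcn2* and *Timp1*, every treated tumor was above every saline tumor, against 6.00% of all tested genes. The last 3, named after their values were seen, had adjusted p values of 0.0687, 0.0983 and 0.0699 (edgeR). After adjustment 1 of the 18 rose, against 2.46% of all tested genes, the kinase gene *Pim1*, from 103 ± 22.2 to 215 ± 47.4 CPM (log2 fold change 1.06, standard error 0.22, adjusted p = 0.0354), not called in 7 of the 8 fits without a tumor. The acute phase genes *Saa1* and *Saa2*, named after their values were seen, had the largest log2 fold changes of that list, 2.82 and 3.01, without passing (adjusted p = 0.274 and 0.282). *Saa1* had 485, 35.6, 86.6 and 26.7 CPM in saline replicates 1, 3, 4 and 5 and 214, 2722.5, 889 and 647 CPM in PFSUV-IMQ replicates 1 to 4, so the groups overlapped through saline replicate 1. The highest level was in PFSUV-IMQ replicate 2, the treated tumor with the highest hepatocyte marker sum, and the part of hepatocyte content in the acute phase values was not tested. Of 9 STAT5 targets, *Pim1*, which is also in the STAT3 list, was the 1 that rose, beside the same 2.46%, and the list median was 0.35. None of the 7 STAT4 targets passed (median 0.46), nor did any of 8 tested STAT6 targets (median -0.33), among which the chemokine gene *Ccl22*, chosen after its values were seen, had the lowest log2 fold change, -0.91 (18.4 ± 6.39 and 9.81 ± 3.90 CPM, adjusted p = 0.304).

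Values for the remaining marker lists are given because STAT levels in a whole tumor depend on which cells it holds. No marker of B cells, macrophages, dendritic cells, neutrophils, endothelium, fibroblasts, hepatocytes or liver tumor cells passed the test. The summed macrophage markers (6 genes) were at 979 to 1402 CPM after saline and 754 to 1446 CPM after PFSUV-IMQ. All 6 had a log2 fold change below 0, and 0 were lower at an unadjusted p under 0.05 (edgeR). Neutrophil markers (5 genes, of which *Ly6g* had too few counts) summed to 15.04 to 57.7 and 29.6 to 137 CPM. All 4 tested had a log2 fold change above 0, and 1 was higher at an unadjusted p under 0.05. This was *Retnlg* (log2 fold change 2.48, adjusted p = 0.291, edgeR), at 0.767 ± 0.754 and 4.24 ± 4.49 CPM. Fibroblast markers (4 genes) summed to 1694.5 to 2541 and 2281 to 6236 CPM, with 3 log2 fold changes above 0 and 1 below. Dendritic cell markers (5 genes) summed to 25.6 to 53.8 and 22.1 to 37.8 CPM, with a median log2 fold change of -0.84. Of these, 4 had a fold change below 0 and 3 were lower at an unadjusted p under 0.05. Of all 15998 tested genes, 13.0% (2078 genes) passed that limit in either direction. Of these, 1334 (8.34% of all tested genes) passed it as higher and the rest as lower. The 3 lower markers were *Flt3* (-1.14, adjusted p = 0.147), *Siglech* (-1.11, adjusted p = 0.271) and *Xcr1* (-0.84, adjusted p = 0.257, edgeR). B cell markers (4 genes) summed to 1.94 to 8.08 and 2.45 to 20.8 CPM, with 3 log2 fold changes above 0 and 1 below. Endothelial markers (4 genes) summed to 83.1 to 127 and 73.6 to 114 CPM, with all 4 log2 fold changes below 0. Liver tumor cell markers (4 genes) summed to 1263 to 2126 and 997 to 2050 CPM, with 2 above 0 and 2 below. The part of these cell types in the STAT differences was not tested.

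**Figure D5:**
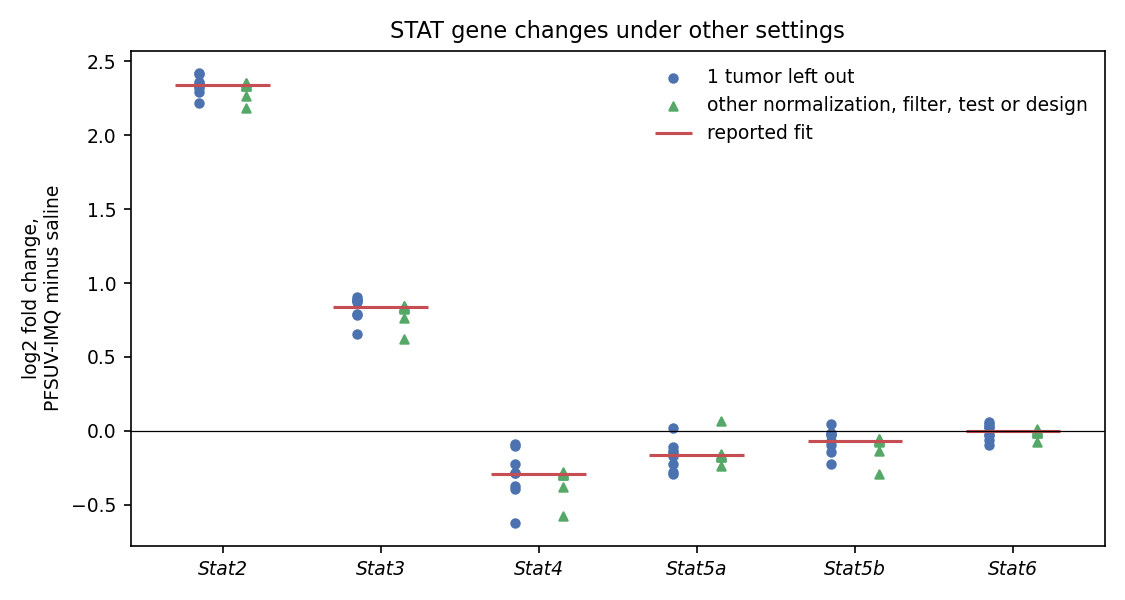
Log2 fold change of each STAT gene in the reported fit (red bar), with 1 tumor left out (blue points) and under another normalization, filter, test or design (green triangles). *Stat2* stays between 2.19 and 2.42 and *Stat3* between 0.62 and 0.91, whereas the values of *Stat5a*, *Stat5b* and *Stat6* fall on both sides of 0.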

How the data were processed

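All tests were run on the count table deposited by the authors, whole-number read counts for each gene in the 8 tumors. The second deposited table holds signal values, the same counts divided by the authors with DESeq2 by 1 size factor per tumor, and it supplied gene symbols and an added alternative. The methods of the study name TopHat and HTSeq, whereas the submitters' processing notes name HISAT2 2.1.0 and featureCounts 2.0.0. The genome build and the strand setting of the counting are not given in the sources used here. All 55536 identifiers are in GENCODE M21, from which GRCm38 coordinates and exon lengths were taken.

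In R 4.3.3, edgeR 4.0.16 (TMM, default filter on low counts, quasi-likelihood test) was fitted to all 15998 tested genes, after a trial on simulated counts. The study's methods state edgeR at an FDR under 0.05, so no fold limit was set. Standard errors are the log2 fold change divided by the square root of the F statistic. Differences within tumors used log2 CPM with a prior count of 2. DESeq2 1.42.0 served as an alternative, beside DESeq2's size factors, upper-quartile normalization, other filters, edgeR's exact test, a limit of 1 on the log2 fold change, the replicate number as a block and each tumor left out. Saline replicate 5 and PFSUV-IMQ replicate 2 have no same-numbered partner. With the block, the group difference therefore comes from the other tumors only. The size factors of the second table were an alternative chosen after seeing the data.

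The members and lists were chosen with earlier results of these data known. All 6 members were named, with the risers of each list (the 4 largest where there were more) and 16 partner, receptor and inhibitor genes written beforehand. The labels do not say whether tumors came from separate mice beyond their replicate numbers, and p values set group differences against the spread between these tumors. Tumors of a group correlated at 0.912 to 0.984 across genes and differed by more than sampling noise (chi-square per degree of freedom 26.0 to 258).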

Additional observations from a re-analysis of the deposited data

Results flagged for a closer look

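*Stat3* in PFSUV-IMQ replicate 2, at 445 CPM (444.88), lay far above the other 3 tumors of its group, which had 287 to 311 CPM. The gap to the nearest tumor was 0.852 of the group's range, above Dixon's 95% critical value for 4 samples. Such a flag is raised by chance in about 1 in 20 groups, and 12 groups (6 genes in 2 groups of tumors) were examined. In the same tumor *Stat2* was also the highest of its group, at 626 CPM, with a ratio of 0.609 that stayed under the critical value.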

How the results depend on the processing

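*Stat2* kept its direction and its call in all 17 alternatives, with log2 fold changes from 2.19 to 2.42. *Stat3* kept its direction in all 17, from 0.62 to 0.91, and passed in 2 of them, edgeR's exact test (0.84) and the DESeq2 Wald test (0.83); with 1 tumor left out it ranged from 0.65 to 0.91 and did not pass. *Stat4* stayed below 0 (-0.62 to -0.09 with 1 tumor left out). *Stat5a* turned to 0.066 with the replicate block and ranged from -0.29 to 0.017 with 1 tumor left out, and *Stat5b* ranged from -0.22 to 0.047. *Stat6* turned to 0.0035 with DESeq2's size factors, 0.0021 with at least 10 counts in every tumor and 0.0104 with the replicate block, and ranged from -0.10 to 0.058 with 1 tumor left out. The differences between *Stat2* and the other members ranged from 1.44 to 2.82 with 1 tumor left out, and *Stat5a* minus *Stat5b* from -0.24 to 0.19. These values were computed without a test.

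Over all genes the counts moved more. Against 394 higher and 35 lower, edgeR's exact test called 627 and 110, DESeq2 731 and 180, the fit without a filter 64 lower and the replicate block 519 higher and 302 lower. With 1 tumor left out, 198 to 398 genes were called higher and 8 to 41 lower; the fewest higher were without saline replicate 1 (198), then without saline replicates 3 (212) and 4 (240) and PFSUV-IMQ replicate 4 (244). Lower genes numbered 16, 13 and 17 without saline replicates 1, 3 and 4, and 10 and 8 without PFSUV-IMQ replicates 3 and 4. A limit of 1 on the log2 fold change left 362 higher and 32 lower. The cause of these shifts was not tested.

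Numbers 1, 3 and 4 are used in each group. The deviations of same-numbered tumors correlated at 0.29, -0.27 and -0.32 across genes, and those of differently numbered tumors at -0.64 to 0.68. These values cannot show whether same-numbered tumors have more than a number in common. With the replicate block, to which saline replicate 5 and PFSUV-IMQ replicate 2 add nothing, *Stat2* was at 2.19 (adjusted p = 0.00213, edgeR) and *Stat3* at 0.62 (adjusted p = 0.0837). Scaling by the size factors of the deposited normalized table, an alternative chosen after seeing the data, changed no call among the 6 genes. Depth limits *Stat4* most, with 25 to 120 reads per tumor.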
